A study of Mus musculus with 24 samples.

Results

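The 43 genes described here are genes of DNA replication and S phase: the origin licensing and helicase proteins, the polymerases with their clamp and clamp loader, the enzymes that make deoxynucleotides, the proteins that restore chromatin behind the fork, and the E2F factors, E-type cyclins and checkpoint adaptor that go with them. They were chosen by symbol and matched to Ensembl identifiers through GENCODE M21. All 43 were found among the 43629 identifiers in the count files, and all 43 were among the 12765 genes that passed the filter on low counts. Over all libraries together a member had between 669 reads (Orc1) and 85856 reads (Pcna).

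The cells were bone marrow-derived macrophages of wild type C57BL/6 mice, grown from marrow for 7 days with 20 ng/mL CSF-1, the growth factor on which these cells depend and divide. CSF-1 stayed in the medium of every group during stimulation. Cells were left unstimulated or received LPS (bacterial lipopolysaccharide), LPS together with interferon gamma (IFNg), or interleukin 4 (IL-4), for 1 h or 18 h, which makes 8 groups of 3 libraries. The protocol gives 20 or 100 ng/mL LPS, 50 ng/mL IFNg and 20 ng/mL IL-4, and does not say which LPS dose a group received. LPS with IFNg may therefore differ from LPS alone in LPS dose too. Such a difference cannot be told apart from that of IFNg here. The sources used here give neither the age of the mice nor whether replicates came from separate mice or cultures. Each p-value therefore refers to the variation among libraries alone, and that variation may be technical.

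Replication begins when the origin recognition complex, CDC6 and CDT1 load the MCM helicase ring onto DNA, and the ring is then switched on by CDC45, the GINS complex and their loading factors. Most of these genes are classical targets of the E2F transcription factors, which are held back by the retinoblastoma protein family until cyclin-dependent kinases release them. Macrophages grown in CSF-1 divide, and stimulation through LPS is known to stop their division.

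Promoter windows from RefSeq (GRCm38.p6, 250 bases before to 50 after a start site) were found for 36 of the 43 genes, and 16 of the 36 (44.4%) held an E2F-type 8-mer. The 8-mers searched on both strands were TTTCCCGC, TTTCGCGC, TTTGCCGC and TTTGGCGC, which can overlap one another. The same letters were in 2.6% of the windows of all 27025 genes in the table and in 4.8% of those of 9362 genes tested here. In the 150 bases before the start alone, 7 of the 36 (19.4%) held such an 8-mer, against 1.44% of all genes. Up to 2 genes with a match were taken from each role, those with the highest mean CPM, and the following stretches show those whose match lies before the start site; capitals mark the 8-mers, and the strand is that of the gene.
Mcm6 (chr1:128359763-128359860, minus strand): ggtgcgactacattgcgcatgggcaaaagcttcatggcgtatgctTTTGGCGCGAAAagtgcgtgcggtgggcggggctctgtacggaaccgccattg
Mcm5 (chr8:75109311-75109408, plus strand): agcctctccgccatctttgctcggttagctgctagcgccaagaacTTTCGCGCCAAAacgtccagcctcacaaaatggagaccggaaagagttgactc
Cdc6 (chr11:98907968-98908065, plus strand): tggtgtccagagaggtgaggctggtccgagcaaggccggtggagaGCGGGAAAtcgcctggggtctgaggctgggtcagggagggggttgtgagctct
Pola1 (chrX:93632241-93632338, minus strand): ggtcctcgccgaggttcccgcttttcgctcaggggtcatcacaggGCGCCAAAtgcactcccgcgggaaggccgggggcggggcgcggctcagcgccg
Uhrf1 (chr17:56304083-56304180, plus strand): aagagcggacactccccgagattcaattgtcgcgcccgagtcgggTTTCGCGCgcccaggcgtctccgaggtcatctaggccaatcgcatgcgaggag

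The stretches of Gins3, Rfc3 and Dnmt1, chosen in the same way, are not shown because they run into annotated exons. These 3 genes fell less with LPS at 18 h (-1.97, -1.14 and -1.15) than the 5 shown. The Cdc6 and Uhrf1 stretches shown also lie within the annotated bounds of those genes. In the Mcm6 and Mcm5 stretches 2 of the 8-mers on opposite strands overlap, so that the capitals run together. The CCAAT box, a general promoter element, was in 66.7% of the members' windows and in 41.1% of those of all genes. The CHR element, searched as TTTGAA and TTCGAA and known from genes of G2 and mitosis, was in 22.2% and 21.7%. A match of letters describes the window and shows no binding. The median log2 change after 18 h of LPS was -3.48 over the 16 genes with a match and -3.39 over the 20 without.

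Library totals ran from 4181890 to 8122945 counts, and levels below are CPM, read counts scaled to a common library size with TMM factors. LPS 18 h replicate 2 stood apart from its group: its chi-square per gene was 8.402 and 10.3 against the other libraries, which differed from each other by 2.28. The median log2 difference of the 43 genes was -0.01 for replicate 1 against replicate 2 and 0.05 for replicate 2 against replicate 3. Single members were apart in either direction (Rfc5 was at 50.0 CPM in replicate 2 against 37.0 and 41.0, and Pole had no read there). IL-4 18 h replicate 2 also stood apart (7.11 and 4.39, against 3.12). In each of the 4 groups taken at 1 h, replicate 2 had the highest level for 33 to 39 of the 43 genes and replicate 3 the lowest for 34 to 39. Macrophage markers (Csf1r, Adgre1, Lyz2 and others) summed to between 10202 and 25664 CPM in every library, while the lymphoid, mast cell, stromal and erythroid lists stayed below 2 CPM. Of their defining genes, Cd3e and Hbb-bs had no read in any library. The strand setting of the authors' counting was not given, and 14 of the 43 genes overlap an exon of the opposite strand (Mcm7, Orc1, Orc6, Cdc45, Gins2, Ticrr, Pole, Rfc2, Rfc4, Rfc5, Tk1, Chaf1a, E2f8 and Ccne2), so reads of such partners may be counted in them.

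The summed level of the 43 genes was 3640, 4113 and 4220 CPM in the unstimulated 18 h libraries. It was 778, 839 and 890 CPM after 18 h of LPS and 830, 845 and 853 CPM after 18 h of LPS with IFNg. The groups lay far apart: the members took 0.421% to 0.495% of all reads in the unstimulated 18 h libraries and 0.0673% to 0.0747% in the 6 libraries with LPS at 18 h. After 18 h of IL-4 the sum was 2887, 2963 and 3178 CPM, also below every unstimulated library of that time. The 1 h groups overlapped, with sums between 2649 and 3486 CPM in all 12 libraries. Within each replicate number, though, the unstimulated library had the highest sum at 1 h. It was 3034, 3486 and 2772 CPM for replicates 1, 2 and 3, against at most 3022, 3377 and 2697 CPM with a stimulus. The sums were not tested. In bulk RNA, fewer cells in S phase and less of these transcripts per cell cannot be told apart.

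**Figure D1:**
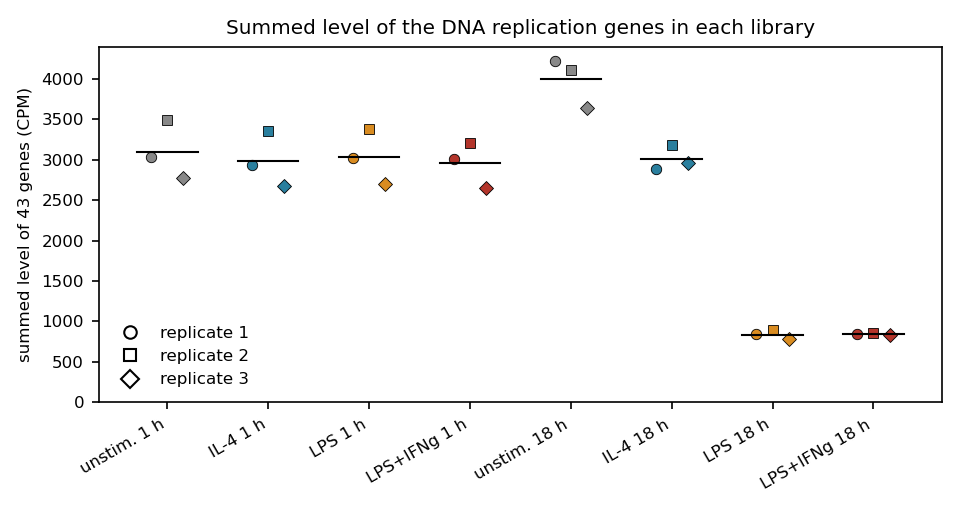
Summed level of the 43 genes in CPM (vertical axis) in each of the 24 libraries, by group (horizontal axis), where the marker shape gives the replicate number and the line the group mean. The 6 libraries with LPS at 18 h lie between 778 and 890 CPM, and the other 18 libraries lie between 2649 and 4220 CPM.

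After 18 h of LPS all 43 genes were lower than in unstimulated cells of the same time at an adjusted p below 0.05, here called lower, where 31.3% of the genes tested were lower and 63.1% were called in either direction. For all 43 the 3 LPS libraries lay below the 3 unstimulated ones (32.3% of all genes did so). The fall was at least 2-fold for 40 of them (13.8% of all genes), and the median log2 change was -3.26, against 0.01 over all genes tested. LPS with IFNg gave 42 genes lower and 1 higher (36.1% of all genes in each direction, 72.2% in either). At 18 h 38 of these fell at least 2-fold (19.1% of all genes), and the median was -3.56. These comparisons and that of IL-4 at 18 h share their 3 unstimulated libraries. Each count of 43 was reached again whenever 1 library was left out.

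**Figure D2:**
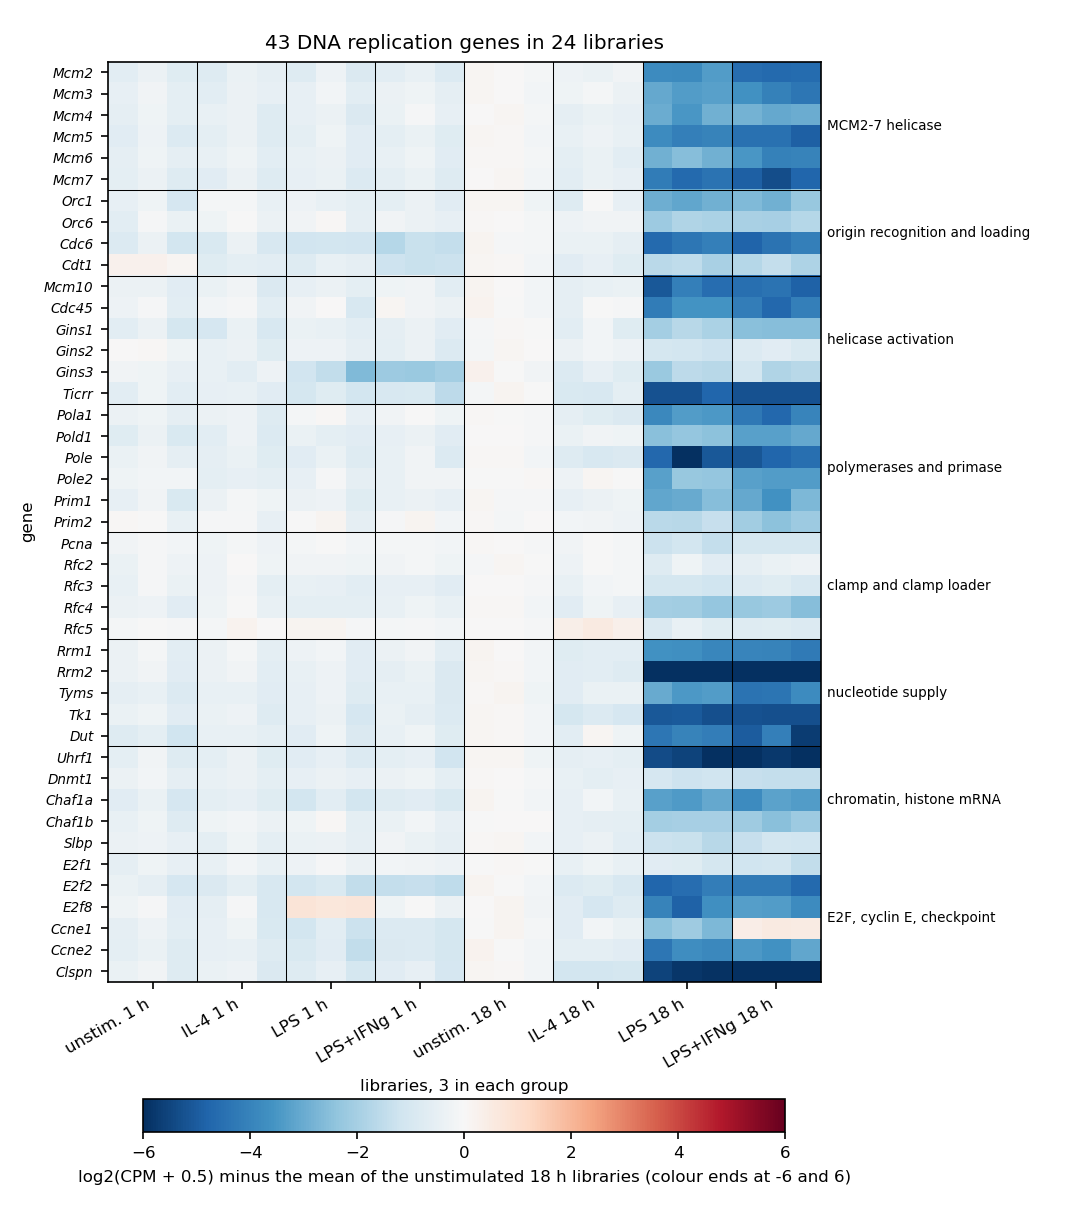
Level of each of the 43 genes (rows, by role) in each of the 24 libraries (columns, 3 per group) as log2(CPM + 0.5) minus the mean of the 3 unstimulated 18 h libraries, where blue is lower and red higher and the colour ends at -6 and 6. The 6 libraries with LPS at 18 h are blue for nearly all rows, Ccne1 is pale red with LPS and IFNg at 18 h (a rise under TMM scaling, -0.068 on the log2 scale with library totals), and E2f8 is pale red with LPS at 1 h.

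The 6 genes of the MCM ring, the replicative helicase, fell together. Mcm5 was at 228, 220 and 185 CPM in unstimulated cells at 18 h and at 14.8, 11.9 and 12.5 CPM with LPS, a log2 change of -4.01 ± 0.16 (SE; edgeR's quasi-likelihood test, adjusted p 3.6e-19). With LPS and IFNg it was at 8.85, 8.91 and 6.44 CPM (-4.70 ± 0.17). No LPS library came near an unstimulated one. Mcm6 was at 332, 324 and 285 CPM unstimulated, at 42.3, 52.1 and 41.4 CPM under LPS (-2.80 ± 0.13) and at 27.6, 18.4 and 18.9 CPM under LPS with IFNg (-3.84 ± 0.14). It kept the largest share of the 6 under LPS, whereas with both agents Mcm4 did (12.56%, against 6.90% for Mcm6). Mcm7 lost most, to 4.37% and 2.84% of its unstimulated mean. The changes of Mcm2, Mcm3 and Mcm4 with LPS were -3.70, -3.26 and -3.13. Subunits of 1 ring therefore differed in their remaining share, from 4.37% (Mcm7) to 14.4% (Mcm6) under LPS.

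Among the genes that recognise origins and load the ring, Cdc6, the ATPase that brings the ring to the origin, was almost lost. It went from 34.4, 29.1 and 28.1 CPM to 0.711, 1.04 and 1.32 CPM with LPS (-4.87 ± 0.27, adjusted p 6.6e-16) and to 0.621, 0.948 and 1.33 CPM with LPS and IFNg (-4.98 ± 0.26). Its partner Cdt1 kept far more. Cdt1 was at 101, 98.6 and 83.5 CPM in unstimulated cells, at 30.6, 32.5 and 24.2 CPM with LPS and at 28.9, 34.5 and 25.9 CPM with both agents, so that 30.8% and 31.5% remained. Orc1, the large ATPase subunit of the origin recognition complex, fell by 3.82 on the log2 scale with LPS, and Orc6, its smallest subunit, by 2.04. Orc1 was the least counted member, and its 3 LPS libraries held 0.533, 0.417 and 0.567 CPM.

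The helicase activators differed in how much of them remained. Ticrr (treslin), which recruits CDC45 to the loaded ring, was at 16.6, 20.4 and 18.0 CPM in unstimulated cells and had a single read in the 3 LPS libraries, against 350 before, a ratio of 289.6-fold (exact 95% interval 51.6 to 11469, for counting error only). With LPS and IFNg it had 0 reads, which makes it at least 104.4-fold lower against a floor of 3 counts over the group. Mcm10, a scaffold of the active helicase, fell from 53.2, 47.1 and 41.5 CPM to 0.889, 2.29 and 1.51 CPM with LPS (-4.93 ± 0.23), and Cdc45 fell by 4.11. The GINS subunits, which complete the active helicase, fell less. Gins2 was at 51.5, 61.4 and 57.2 CPM unstimulated, at 27.0, 25.8 and 23.5 CPM with LPS and at 31.8, 35.1 and 29.5 CPM with both agents, so 44.9% and 56.7% remained. Gins1 and Gins3 kept 24.95% and 25.65% under LPS. Cdc45, Gins2 and Ticrr overlap exons of the opposite strand.

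All 6 polymerase and primase genes fell. Pole, the catalytic subunit of the leading strand polymerase, went from 58.1, 57.6 and 48.7 CPM to 1.60, 0 and 1.13 CPM with LPS (-5.81) and to 1.09, 1.52 and 1.89 CPM with both agents (-5.20 ± 0.25, adjusted p 1.3e-17), the deepest fall of this class. With LPS its accessory subunit Pole2 fell less, from 15.7, 15.8 and 16.6 CPM to 1.24, 2.92 and 2.84 CPM (-2.80 ± 0.21). Pola1, the catalytic subunit of the polymerase that extends primers, fell by 3.69 with LPS, and Pold1, the catalytic subunit of the lagging strand polymerase, by 2.46. Of the primase subunits, Prim1, which makes the primer, fell by 3.08 with LPS, and the large subunit Prim2 fell by 1.60.

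The sliding clamp and its loader had the smallest median change of the 8 classes. Pcna, the clamp that tethers polymerases to DNA and also serves repair, was at 772, 744 and 697 CPM unstimulated and still at 302, 342 and 274 CPM with LPS (-1.27 ± 0.08, adjusted p 5.8e-15). With LPS and IFNg it was at 352, 358 and 359 CPM (-1.05 ± 0.08). Every library with LPS lay below every unstimulated one, yet per kilobase of exon Pcna had the highest level of all members in each of the 8 groups. Of the loader subunits, Rfc2 was at 42.2, 48.6 and 44.4 CPM unstimulated and at 25.9, 37.1 and 28.0 CPM with LPS (-0.58 ± 0.12, adjusted p 7.8e-05), the smallest change of all members under LPS. Rfc5 (-0.67 ± 0.10) and Rfc3 (-1.14 ± 0.14) were close to it, whereas Rfc4 fell by 2.27. The median over these 5 genes was -1.14 with LPS and -0.86 with both agents.

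The nucleotide enzymes had the largest median change of the 8 classes, -4.55 with LPS and -5.47 with LPS and IFNg over 5 genes. Rrm2, the S phase subunit of ribonucleotide reductase, was at 162, 154 and 130 CPM unstimulated. It was at 1.60, 1.04 and 1.51 CPM with LPS and at 0.466, 0.190 and 0.379 CPM with both agents, so 0.933% and 0.232% of the mean remained. Its partner Rrm1, which carries the catalytic site, kept 7.30% and 5.72%. Tk1 (thymidine kinase), from 121, 117 and 101 CPM, reached 2.84, 2.92 and 2.46 CPM with LPS (-5.36 ± 0.22). Dut, which keeps uracil out of DNA, fell by 4.55, and Tyms (thymidylate synthase) had a log2 change of -3.44. For Tyms the level was lower with LPS and IFNg, 1.24, 1.33 and 2.27 CPM against 4.09, 2.92 and 3.22 CPM with LPS alone. This difference (-1.10, adjusted p 0.015 in edgeR's test) was not called in 3 alternatives.

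In the class that copies chromatin, the partners of maintenance methylation parted. Uhrf1, which recognises half-methylated DNA and brings the methyltransferase there, was at 166, 166 and 129 CPM unstimulated and at 3.20, 2.71 and 1.13 CPM with LPS. Dnmt1, the methyltransferase itself, was at 253, 242 and 218 CPM and kept 117, 99.4 and 104 CPM (-1.15 ± 0.09, adjusted p 7.9e-12). So 1.53% of Uhrf1 remained and 44.9% of Dnmt1. Chaf1a and Chaf1b, subunits of the same histone chaperone, fell by 3.35 and 2.06. Slbp, the protein that binds the stem loop of histone mRNAs, fell from 70.6, 72.2 and 59.4 CPM to 27.4, 26.5 and 20.6 CPM (-1.44 ± 0.12).

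E2f1, an activator of S phase genes, was among the members that fell least under LPS, from 75.0, 80.5 and 75.9 CPM to 48.3, 46.9 and 36.7 CPM (-0.81 ± 0.11, adjusted p 1.8e-07), and it fell further with LPS and IFNg (33.5, 35.1 and 27.1 CPM, -1.27 ± 0.11). E2f2, another activator, went from 46.9, 41.0 and 36.7 CPM to 1.07, 1.25 and 1.89 CPM with LPS (-4.87 ± 0.23). E2f8, a repressor of the family, went from 46.1, 50.1 and 38.6 CPM to 2.31, 1.04 and 3.03 CPM with LPS (-4.36 ± 0.27). Clspn (claspin), the adaptor through which ATR activates CHK1, fell from 69.3, 67.4 and 57.5 CPM to 0.889, 0.625 and 0.567 CPM with LPS (-6.49 ± 0.29). With LPS and IFNg it had 1 read in 3 libraries against 1228 unstimulated, a ratio of 1099-fold (exact 95% interval 197 to 43440, for counting error only).

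Of the E-type cyclins, which drive entry into S phase, Ccne1 separated LPS from LPS with IFNg. Ccne1 was at 29.6, 34.0 and 28.1 CPM in unstimulated cells at 18 h and fell to 5.15, 6.46 and 4.35 CPM with LPS (-2.53 ± 0.20, adjusted p 2.2e-12). With LPS and IFNg it was at 40.4, 44.4 and 42.4 CPM, above all unstimulated libraries (0.47 ± 0.14, adjusted p 0.0034). Compared directly, it was higher with IFNg by 2.996 ± 0.19 on the log2 scale (adjusted p 6.7e-14), and no library of one group reached the other. The rise over unstimulated cells depended on the scaling: with library totals in place of TMM it became -0.068 (adjusted p 0.668), while under that scaling the median of all genes in that comparison was -0.54. Ccne2 did not share this pattern. It went from 52.8, 44.3 and 40.0 CPM to 1.78, 2.92 and 2.65 CPM with LPS and to 3.73, 3.22 and 4.73 CPM with both agents (0.68 ± 0.33 between them, adjusted p 0.098).

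**Figure D3:**
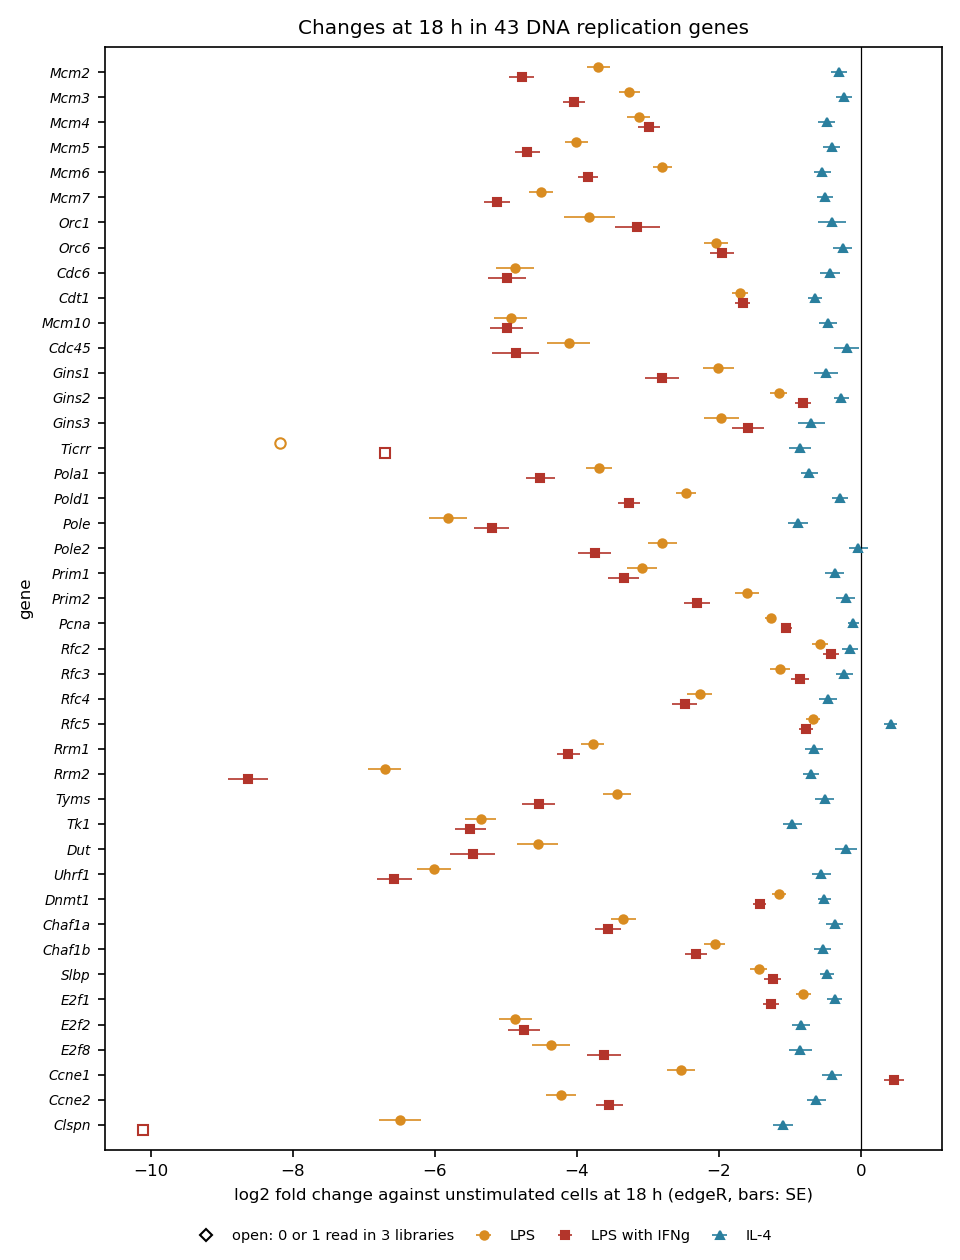
Log2 fold change of each of the 43 genes at 18 h against unstimulated cells (horizontal axis; bars are standard errors, n = 3 against 3) with LPS, LPS with IFNg and IL-4. Open symbols mark genes with 0 or 1 read in the stimulated libraries, drawn at the fold from counts alone, which for Ticrr with LPS and IFNg is a lower bound; Ccne1 with LPS and IFNg (0.47, or -0.068 with library totals as the scale) and Rfc5 with IL-4 (0.42) are the points right of 0.

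Set directly against LPS alone at 18 h, LPS with IFNg had 14 of the 43 genes lower and 3 higher, where 23.4% and 24% of all genes were (47.4% in either direction). The share of members called in either direction lies below the background and that of lower calls above it, and the median was -0.26. These groups may also differ in LPS dose. Of the MCM genes 4 of 6 were lower with IFNg (Mcm2 -1.08 ± 0.27, Mcm6 -1.04 ± 0.16, Mcm3 -0.78 ± 0.20, Mcm5 -0.69 ± 0.23). Mcm4 was not called (0.14 ± 0.20). Of the polymerase and primase genes 4 of 6 were lower: Pole2, Pola1, Pold1 and Prim2, by 0.70 to 0.95. Rrm2 (-1.93 ± 0.75, adjusted p 0.035) and Tyms (-1.10 ± 0.37) were lower too, as were E2f1, Dnmt1, Gins1 and Clspn. Clspn had 1 read against 11 (11.9-fold lower, exact 95% interval 1.73 to 512). Beside Ccne1 the higher genes were Gins2 (0.34 ± 0.13, adjusted p 0.032) and Pcna (0.22 ± 0.08, adjusted p 0.019). Leaving out 1 library lowered the count of 17 in each case: to 12 without LPS replicate 2, to 11 and 10 without LPS replicates 1 and 3, and to 10, 9 and 11 without LPS with IFNg replicates 1, 2 and 3. In every alternative at the 0.05 threshold 6 of the 17 calls were kept: Mcm2, Mcm3, Mcm6, Pold1, E2f1 and Ccne1.

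After 1 h few members were called. LPS had 6 genes lower and 1 higher (11.4% and 10.8% of all genes, 22.2% in either direction), with a median of -0.04. LPS with IFNg had 7 lower and 0 higher (14.7% of all genes in each direction, 29.4% in either), with a median of -0.02. IL-4 had 2 lower and 0 higher (3.27% and 3.22%, 6.49% in either). Each of these shares is close to or below the background. In the main fit none of 6 MCM genes, 6 polymerase and primase genes, 5 clamp genes or 5 nucleotide enzymes was called. The 3 comparisons share the unstimulated 1 h libraries. With library totals in place of TMM the counts of 7 became 14 for LPS (1 higher, 13 lower) and 21 for LPS with IFNg (all lower), where the median of all genes moved to -0.19 and -0.25. A replicate block gave 12 for LPS with IFNg (2 higher, 10 lower). The higher ones were Dut (0.37, adjusted p 0.042 in edgeR's test) and E2f1 (0.21, adjusted p 0.047). With LPS the count fell from 7 to 4 without LPS replicate 1, LPS replicate 3, unstimulated replicate 1 or unstimulated replicate 2. With IL-4 it fell to 1 without unstimulated replicate 1, unstimulated replicate 2 or IL-4 replicate 3.

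Cdt1 was called at 1 h with every stimulus. It was at 112, 113 and 101 CPM in unstimulated cells, at 54.1, 69.2 and 65.3 CPM with LPS (-0.79 ± 0.10, adjusted p 3.5e-07), at 39.8, 36.7 and 38.6 CPM with LPS and IFNg (-1.502 ± 0.11, adjusted p 7e-13) and at 56.0, 62.6 and 59.7 CPM with IL-4 (-0.87 ± 0.10, adjusted p 1e-07). All 9 stimulated libraries lay below the 3 unstimulated ones, and the level with IFNg was below that with LPS alone (-0.71 ± 0.11, adjusted p 2.1e-05). At 18 h the IL-4 libraries were at a like level, 58.8, 65.8 and 56.5 CPM (-0.64 ± 0.10). Gins2 was also lower at 1 h with all 3 stimuli, at 57.4, 58.8 and 46.6 CPM unstimulated and 38.0, 43.6 and 32.3 CPM with LPS and IFNg (-0.52 ± 0.11). With LPS (-0.32 ± 0.11, adjusted p 0.044) and IL-4 (-0.45 ± 0.11, adjusted p 0.0067) its call was lost in some alternatives.

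Gins3 showed the largest early fall, with 10.4, 9.99 and 8.45 CPM unstimulated, 5.09, 4.04 and 1.501 CPM with LPS (-1.40 ± 0.26, adjusted p 9e-05) and 2.22, 2.19 and 2.51 CPM with LPS and IFNg (-2.05 ± 0.27, adjusted p 3.5e-07). With IL-4 it was at 8.76, 7.41 and 9.62 CPM, overlapping the unstimulated libraries (-0.17 ± 0.20). With both agents the 3 values at 1 h lay below the 3 at 18 h, which were 5.28, 3.03 and 3.41 CPM. Cdc6 (-0.79 ± 0.18, adjusted p 0.00077) and Ticrr (-0.66 ± 0.18, adjusted p 0.006) were called at 1 h with LPS and IFNg, and E2f2 with LPS (-0.52 ± 0.15, adjusted p 0.012) and with both (-0.85 ± 0.15, adjusted p 5.2e-05). Ccne1 was lower at 1 h with LPS (-0.53 ± 0.17, adjusted p 0.026) and with both agents (-0.43 ± 0.16, adjusted p 0.049). At 18 h with both its change was 0.47, or -0.068 with library totals as the scale. Ccne2 was called with LPS (-0.42 ± 0.15, adjusted p 0.046). The libraries of E2f2 and Ccne2 with LPS overlapped those of unstimulated cells. The calls of Ticrr and Ccne1 with both agents, and of E2f2, Ccne1 and Ccne2 with LPS, were lost in some alternatives.

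E2f8 was the member that rose at 1 h. It was at 37.0, 42.3 and 27.8 CPM unstimulated, at 75.9, 71.6 and 74.3 CPM with LPS (1.04 ± 0.16, adjusted p 5e-06) and at 36.7, 44.6 and 34.6 CPM with LPS and IFNg (0.10 ± 0.16). The LPS libraries lay above all others of that time, and the direct comparison with LPS and IFNg was called (-0.94 ± 0.16, adjusted p 4.3e-05). Cdt1 and E2f8 were the 2 members called between LPS with IFNg and LPS at 1 h, both lower with IFNg (5.25% of all genes were lower, 6.52% higher and 11.8% called in either direction).

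**Figure D4:**
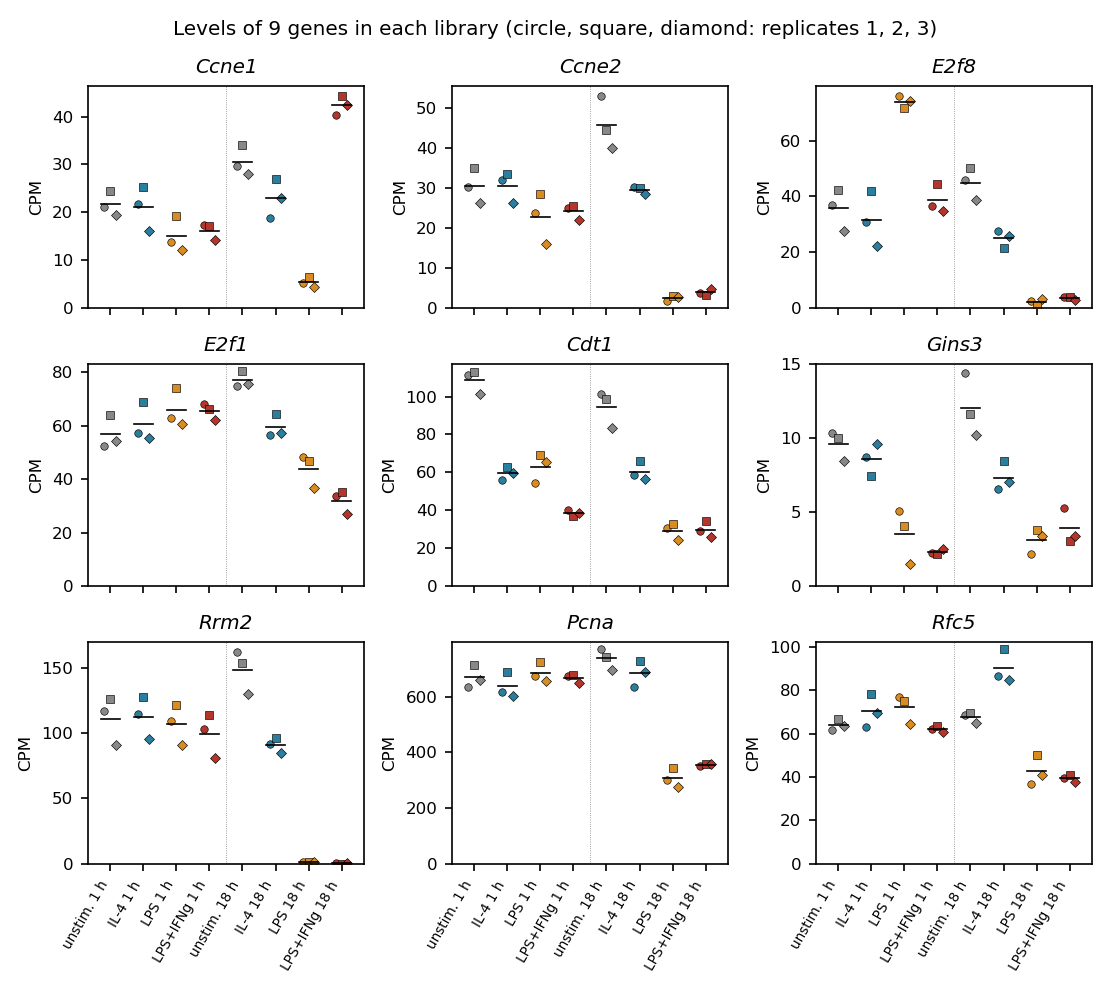
Level in CPM (vertical axes from 0) of 9 members in each library by group, where the marker shape gives the replicate number and the line the group mean. Ccne1 is highest with LPS and IFNg at 18 h under the TMM scaling plotted (40.4 to 44.4 CPM; with library totals its change against unstimulated cells is -0.068), E2f8 with LPS at 1 h (71.6 to 75.9 CPM) and Rfc5 with IL-4 at 18 h (84.9 to 99.2 CPM), and Cdt1 is below its unstimulated 1 h level in each stimulated 1 h group.

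The response at 18 h was then tested against the response at 1 h for each gene. For LPS 42 of the 43 genes had the more negative response at 18 h (27.2% of all genes did so, 54.2% differed in either direction). The exception was Gins3 (-0.57 ± 0.38, adjusted p 0.22). For LPS with IFNg 39 genes were more negative and 1, Ccne1, more positive (32.2% and 31.8% of all genes, 64% in either direction). Cdt1 (-0.16 ± 0.15), Gins2 (-0.30 ± 0.16) and Gins3 (0.47 ± 0.38) were not called there. For IL-4 18 genes were more negative and 0 more positive (11.4% and 10.1%, 21.5% in either). The count for IL-4 was 9 without unstimulated 1 h replicate 3, 11 without unstimulated 18 h replicate 1 and 11 without IL-4 1 h replicate 2, of which Rfc5 was positive (0.37). It was 26 without unstimulated 1 h replicate 2.

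Unstimulated cells themselves had more of these transcripts at 18 h than at 1 h. Of the 43 genes 28 were higher and 0 lower (4% and 8.01% of all genes, 12% in either direction), with a median of 0.44. Cdc6 rose from 17.0, 23.4 and 14.1 CPM to 34.4, 29.1 and 28.1 CPM (0.73 ± 0.15, adjusted p 0.0011), and Dut from 19.8, 22.6 and 15.0 CPM to 37.9, 35.9 and 30.6 CPM (0.85 ± 0.17, adjusted p 0.0011). In both the groups were apart. All 6 MCM genes rose, by 0.42 to 0.60, and so did all 5 genes of the chromatin class. Pcna (0.14 ± 0.07), Rfc2, Rfc3 and Rfc5 did not pass, nor did Cdt1 (-0.20 ± 0.10). The count was 18 without unstimulated 1 h replicate 1, 11 without unstimulated 1 h replicate 3, and 15 without unstimulated 18 h replicate 1 or replicate 2. The direction was higher for every gene called in each of these fits, and 11 of the 28 calls were kept in every alternative at the 0.05 threshold.

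IL-4 for 18 h lowered 32 of the 43 genes and raised 1 against unstimulated cells (20.1% and 19% of all genes, 39.2% in either direction), with a median of -0.46. The fall was shallow: the largest were Clspn, from 69.3, 67.4 and 57.5 CPM to 29.6, 29.9 and 31.3 CPM (-1.10 ± 0.14, adjusted p 3.5e-07), and Tk1, from 121, 117 and 101 CPM to 53.5, 63.5 and 56.0 CPM (-0.97 ± 0.13, adjusted p 5.7e-07). In both the groups were apart. Rrm2 kept 61.4% of its unstimulated mean, Pole 54.4% and E2f2 55.5%. All 6 genes of the E2F, cyclin and checkpoint class fell, by 0.37 to 1.10. The other 10 members were not called, among them Pcna (-0.11 ± 0.07), Pole2 (-0.04 ± 0.13) and Dut (-0.21 ± 0.16).

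Rfc5, a loader subunit, was the member that rose with IL-4, from 68.6, 69.4 and 65.1 CPM to 86.3, 99.2 and 84.9 CPM (0.42 ± 0.09, adjusted p 0.00044), and the libraries did not overlap. It overlaps an exon of the opposite strand. The other loader subunits went down or were not called: Rfc4 was at -0.46 ± 0.13, Rfc3 at -0.24 ± 0.12 and Rfc2 at -0.16 ± 0.11. The unstimulated 18 h libraries serve as the reference here and are also the high group of the preceding comparison in time. Side by side, the summed level was 2772 to 3486 CPM in unstimulated cells at 1 h, 2679 to 3350 CPM with IL-4 at 1 h and 2887 to 3178 CPM with IL-4 at 18 h. Without IL-4 18 h replicate 2, which stood apart, 33 genes were called, with Mcm2 and Prim1 lost and Orc1 and Dut gained.

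**Figure D5:**
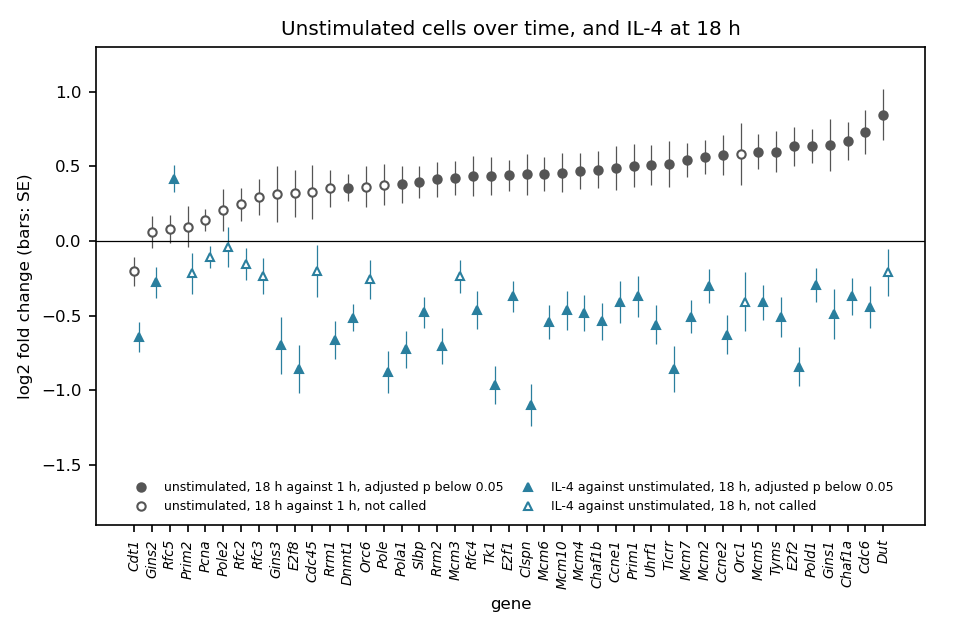
Log2 fold change (vertical axis, bars are standard errors, n = 3 against 3) of the 43 genes for unstimulated cells at 18 h against 1 h (circles) and for IL-4 against unstimulated cells at 18 h (triangles), ordered by the first, where filled symbols are called and open ones are not. The 28 filled circles lie above 0, and of the 33 filled triangles Rfc5 alone lies above it; both sets use the unstimulated 18 h libraries.

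Levels of different genes were compared per kilobase of exon. In unstimulated cells at 18 h Pcna was by far highest, at a mean of 307 CPM per kb. Mcm6 (67.2), Rrm2 (53.6) and Mcm5 (52.8) followed, and Orc1 (2.15) and Ticrr (1.83) were lowest. After 18 h of LPS the order had changed behind Pcna (128 CPM per kb): Dnmt1 (14.5), E2f1 (13.9), Mcm6 (9.70), Cdt1 (9.27) and Rfc5 (9.14) came next, while Rrm2 was at 0.4998. With LPS and IFNg Ccne1 was second after Pcna, at 15.9 against 148.

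Further genes of the pathway are set below against the shares of all genes: 31.3% lower and 31.8% higher with LPS at 18 h, 36.1% each way with LPS and IFNg, and 20.1% lower and 19% higher with IL-4. Of 37 further replisome and origin genes 29 were lower and 2 higher with LPS at 18 h, with a median of -1.64, and 28 were lower and 5 higher (Orc4, Orc5, Mcmbp, Pold3 and Rnaseh2b, by 0.42 to 0.82) with both agents. Top2a, the topoisomerase that untangles sister DNA, went from 388, 358 and 315 CPM to 2.67, 2.50 and 3.22 CPM with LPS (-6.97 ± 0.22). Lig1 and Fen1, which join and trim lagging strand fragments, fell by 3.68 and 2.19. Orc5 (0.30) and Rnaseh2a (0.26), an origin subunit and a ribonuclease subunit, were the genes higher with LPS. Gmnn, the inhibitor of Cdt1, fell with LPS at 1 h (-0.42 ± 0.15) and at 18 h (-2.51 ± 0.17). With IL-4 at 18 h 19 were lower and 2, Rnaseh2a and Pold4, higher. Pold4, the smallest subunit of the lagging strand polymerase, rose from 42.3, 41.6 and 46.9 CPM to 86.5, 107 and 90.5 CPM (1.12 ± 0.10, adjusted p 1.9e-10). Dna2, a nuclease of fragment ends, stood out between the LPS groups: it was at 5.51, 4.59 and 3.59 CPM with LPS and at 22.4, 21.1 and 22.0 CPM with LPS and IFNg (2.25 ± 0.19).

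Of 12 chromatin assembly genes 10 were lower and 1 higher with LPS at 18 h, and 10 lower and 2 higher with both agents. The higher ones were Asf1a with LPS (0.44) and Asf1a and Hat1 (1.12) with both. Asf1b, a histone chaperone of dividing cells, fell by 4.26 with LPS. Its paralog Asf1a rose with both agents, from 10.2, 9.69 and 6.58 CPM to 38.2, 41.9 and 38.1 CPM (2.16). The 2 paralogs thus moved in opposite directions. Of 21 further nucleotide supply genes 13 were lower and 3 higher (Samhd1, Dck and Ctps2) with LPS at 18 h, and 14 lower and 6 higher with both agents. Samhd1, the enzyme that degrades deoxynucleotides, rose with LPS from 214, 217 and 226 CPM to 1162, 1129 and 1105 CPM (2.37 ± 0.10) and by 4.23 ± 0.10 with both. Rrm2b, the reductase subunit used outside S phase, was at 0.18 ± 0.14 with LPS, which was not called, and rose by 0.66 ± 0.13 with both.

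Of 23 G1 and E2F regulators 16 were lower and 4 higher (Ccnd2, Ccnd3, E2f4 and Lin37) with LPS at 18 h (31.3% and 31.8% of all genes), and 13 lower and 2 higher (Ccnd2 and Rbl1) with both agents. Myc, a growth regulator, rose at 1 h with LPS (1.01 ± 0.09) and IL-4 (1.18 ± 0.09) and fell at 18 h with LPS, from 50.1, 52.9 and 45.5 CPM to 4.80, 4.38 and 4.54 CPM (-3.43 ± 0.15). Ccnd1, the cyclin induced by CSF-1, was at 611, 585 and 499 CPM unstimulated, at 167, 155 and 160 CPM with LPS (-1.81 ± 0.10) and at 601, 604 and 578 CPM with LPS and IFNg (0.07 ± 0.09, not called). Like Ccne1 it was higher with LPS and IFNg than with LPS alone (1.89 ± 0.10). Ccnd2 rose with LPS (1.86 ± 0.16) and with both (3.13 ± 0.14). Rbl1 (p107), a pocket protein that binds E2F, was lower with LPS and higher with both agents (0.95 against unstimulated cells, 2.59 ± 0.13 against LPS).

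Of 7 CDK inhibitors 1 rose with LPS at 18 h and 5 fell (31.8% and 31.3% of all genes). With both agents 3 rose (Cdkn1a, Cdkn1b and Cdkn2b) and 3 fell (36.1% each way), and with IL-4 at 18 h 1 rose and 5 fell (19% and 20.1%). The inhibitor that rose with LPS and with IL-4 was Cdkn1a (p21), which was already higher at 1 h with LPS (2.23 ± 0.09), with both agents (2.43 ± 0.09) and with IL-4 (0.46 ± 0.08). At 18 h it was at 241, 231 and 214 CPM unstimulated and at 721, 837 and 818 CPM with LPS (1.79 ± 0.09), and no library overlapped. Cdkn1b (p27) fell with LPS (-0.53 ± 0.13) and rose with both (0.44 ± 0.12). Of 9 replication checkpoint genes 6 fell and 2, Rad9a (0.31) and Rad17 (0.28), rose with LPS at 18 h. Chek1, the checkpoint kinase that Clspn serves, went from 15.4, 15.8 and 13.3 CPM to 0.889, 0.208 and 0 CPM (-5.21 ± 0.38), and Hus1, a part of the checkpoint clamp, rose with both agents (0.92 ± 0.14).

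All 20 G2 and mitosis genes were lower with LPS at 18 h (median -5.70), with LPS and IFNg (-5.99) and with IL-4 (-0.92). Mki67, a marker of cycling cells, was at 391, 364 and 309 CPM unstimulated, at 12.1, 6.25 and 9.83 CPM with LPS, at 3.11, 1.90 and 3.03 CPM with both agents and at 164, 142 and 164 CPM with IL-4. It was higher at 1 h with LPS (0.55 ± 0.14) and with both agents (0.51 ± 0.14). Between 1 h and 18 h of culture without stimulus 1 of the 20 was called higher, Plk1 (0.48 ± 0.15), near the share of all genes (4%). The median of the list was 0.22.

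Sums of neutrophil, granule precursor and progenitor markers were lower in the late LPS groups. The neutrophil and granule precursor sum rests mainly on Ngp (5130 reads over all libraries) and Ltf (4254). Its other genes had 27 to 495 reads each. The 8 neutrophil and granule precursor genes summed to 60.8 to 112 CPM in every group but LPS 18 h (36.3 to 40.9 CPM) and LPS with IFNg 18 h (6.07 to 9.47 CPM), where 1 and 3 of the 8 had no read. The 4 progenitor genes (Kit, Cd34, Gata2 and Flt3) summed to 4.13 to 12.7 CPM elsewhere, to 1.46 to 1.89 CPM with LPS at 18 h and to 1.33 to 2.47 CPM with both agents. With IL-4 at 18 h the first list was at 64.9 to 78.9 CPM, within the range of the unstimulated libraries of that time (60.8 to 79.9 CPM). The 4 dendritic cell genes summed to 12.1 to 16.3 CPM with LPS and IFNg at 18 h and to at most 7.53 CPM in the other groups. The part of these cells in the fall of the replication genes was not tested.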

How the data were processed

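RNA was sequenced from 24 macrophage libraries (stranded mRNA kit) in 8 groups of 3. The authors deposited raw read counts per Ensembl gene for each library. Per the submitters' processing notes the reads were processed with STAR and featureCounts on GRCm38, with DESeq2 and deepTools also named. The sources used here do not give versions, annotation release, strand setting or filters. Of 43629 identifiers 42548 have a symbol in GENCODE M21.

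From these counts, edgeR 4.0.16 (R 4.3.3) fitted a quasi-likelihood model with a mean for each of the 8 groups over all 24 libraries, after filterByExpr (minimum count 10) and TMM scaling. A gene is called at a Benjamini-Hochberg adjusted p below 0.05 over 12765 genes in each of 9 group comparisons and 3 tests of the difference between responses at 18 h and 1 h. Errors of fold changes are approximate standard errors, the absolute log2 change divided by the square root of the F value of the quasi-likelihood test. The steps were tested on simulated data. The simulation changed few genes, as many up as down, so it cannot test the scaling where most genes change. Total counts were 4181890 to 8122945 per library, so genes with few reads have wide errors.

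The 43 members, the 7 pathway lists and the 8 marker lists were chosen with earlier results of these data known. All members may be named, as may up to 4 called genes with the largest change per pathway list and comparison, and 13 regulators fixed by name. Rnaseh2a and the genes listed by name beside a count of 5 or fewer were chosen after their values were seen.

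Replicate numbers come from the sample titles. Same-numbered libraries deviated together for IL-4 at 1 h against unstimulated cells (correlations of 0.133, 0.231 and 0.164 over genes), so the numbers may pair these libraries. The values given for that comparison come from the fit without a replicate block. The blocked fit called the same number of members there, 2. Pairing may extend beyond that comparison: between the LPS groups at 1 h the closest match had the same number in 6 of 6 cases.

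Alternatives were other scaling, no filter, DESeq2 1.42.0, limma-voom 3.58.1, only the groups compared, a replicate block, a stricter threshold and each library left out.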

Additional observations from a re-analysis of the deposited data

Results flagged for a closer look

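For several results the response to a stimulus differed between 18 h and 1 h by a test of that difference (edgeR). It differed for 42 of the 43 genes with LPS, for 40 with LPS and IFNg and for 18 with IL-4. Of all genes tested 54.2%, 64% and 21.5% differed in these tests. The 18 members called with IL-4 were all negative (without IL-4 1 h replicate 2, 11 were called, of which Rfc5 was positive). E2f8 rose with LPS at 1 h and fell at 18 h, a difference of -5.40 on the log2 scale. Ccne1 fell with LPS and IFNg at 1 h and rose at 18 h (0.47, or -0.068 with library totals as the scale), a difference of 0.90.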

How the results depend on the processing

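Over all alternatives at the 0.05 threshold 7471 values of single members were recomputed: 7133 kept direction and side of the threshold, 211 lost the call, 126 gained it and 1 reversed, Ccne1 with LPS and IFNg at 18 h, which became -0.068 with library totals as the scale. That scaling moved the median of all genes by -0.19 and -0.41 for LPS (1 h and 18 h) and by -0.25 and -0.54 for LPS with IFNg, and by -0.12 between the LPS groups at 18 h. All genes then split into 895 higher and 3548 lower for LPS at 1 h (main 1376 and 1461), 2079 and 6984 at 18 h (4055 and 4000), and 2475 and 7617 for LPS with IFNg at 18 h (4602 and 4613). It gave 14 members called for LPS at 1 h and 21 for LPS with IFNg at 1 h, all but E2f8 lower, against 7 in each. With the threshold at 0.01 the counts were 3 for LPS at 1 h, 6 between the LPS groups at 18 h, 15 in unstimulated cells over time and 6 for the IL-4 difference. Member counts at 0.01, without 1 library and with a replicate block are given without the share of all genes in the same fits. The same holds for the 21 of LPS with IFNg at 1 h. Such counts show only how calls of members shift with the processing.

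Without 1 library the members called were 4 to 9 for LPS at 1 h, 5 to 9 for LPS with IFNg at 1 h, 1 to 2 for IL-4 at 1 h and 26 to 33 at 18 h, 9 to 12 between the LPS groups at 18 h, 11 to 33 in unstimulated cells over time and 9 to 26 for the IL-4 difference. They were 43 in every fit of LPS and of LPS with IFNg at 18 h. The cause was not tested, and each such fit has 1 library less. Calls kept in every alternative at the 0.05 threshold were 3 of 7 for LPS at 1 h, 43 of 43 at 18 h, 5 of 7 and 42 of 43 for LPS with IFNg, 1 of 2 and 25 of 33 for IL-4, 6 of 17 between the LPS groups at 18 h and 11 of 28 over time.

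In the other 8 group comparisons same-numbered libraries did not all correlate above 0.1, the rule used for pairing (lowest from -0.09 to 0.07). For LPS at 18 h, and between the LPS groups at both times, the closest match had the same number in 6 of 6 cases. The count was 5 for LPS at 1 h and for LPS with IFNg at both times. It was 4 for unstimulated cells over time and 2 for IL-4 at 18 h. The main fit models no effect of the replicate number. A replicate block gave 12 members for LPS with IFNg at 1 h (2 higher, 10 lower), 9 for LPS at 1 h, 34 for IL-4 at 18 h, 33 over time and 27 for the IL-4 difference; 25 calls were gained and 0 lost. Genes with few reads limit the depth of a fall that can be measured.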
